A study of Daphnia magna with 84 samples.

Results

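The comparison set single Daphnia magna fed at 1 nM Hg/L against single animals at concentration 0, at day 6 and at day 17 of the exposure, with day as a block. It used 12 of the 84 RNA-seq libraries of the series, chosen by their concentration and day labels, with 6 at 1 nM Hg/L and 6 at concentration 0, or 3 animals per concentration and day. Daphnia magna is a freshwater crustacean widely used in toxicity testing. Per the labels, exposure was through the food, since green algae (C. reinhardtii) were held in a coal ash mixture before they were fed to the animals, and the concentration names only the mercury of a mixture that holds many other coal ash constituents. The animals at concentration 0 carry the same treatment label, coal ash, and are told apart by the concentration alone. Each library came from the whole body of 1 animal. The labels used here give neither the clone or strain of the animals nor their age at the start.

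Coal ash is the residue of coal combustion and carries metals and metalloids, mercury among them, that small crustaceans take up with their food. Daphnia grow by repeated moults and reproduce mostly by parthenogenesis, carrying their embryos in a brood chamber, so RNA of a whole female mixes many tissues and can include that of her brood. Animals exposed to metals are known to raise metal-binding proteins, antioxidant enzymes and chaperones. Those genes could not be looked up, because the table of counts gives gene models by an ID alone, and no ID was found in the reference list of named genes. Models are therefore given by ID and position on the authors' scaffolds, with no statement of what they encode, and the tissue label could not be checked against marker genes. No sequence of a gene model was to hand, and none is shown.

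Most counts in every library fell in 5 gene models, called dominant here, and the counts outside them set the depth behind every value below. At day 6 these were 2035564, 1992461 and 1109336 in the animals at 1 nM Hg/L, against 2198766, 2140041 and 2596374 in those at 0, so all 3 exposed animals lay below all 3 controls. The day 17 libraries were ordered the other way, with 1565956, 1872143 and 1248656 at 1 nM Hg/L and 995979, 919693 and 1244255 at 0, and the lowest exposed animal stood only just above the highest control. On the log2 scale the difference between 1 nM Hg/L and 0 was -0.48 at day 6 and 0.56 at day 17, with p = 0.1 within each day by an exact two-sided permutation test, the smallest p that 3 animals against 3 allow. Averaged over the days it was 0.04 (exact permutation p = 0.9, two-sided, 400 arrangements within day). The difference between the days, 1.04, had an exact permutation p of 0.005, the smallest that these arrangements can give. Its null is no difference between 1 nM Hg/L and 0 at either day. Depth thus moved with concentration in opposite directions at the 2 days, beside every gene-level result that follows. With the log2 share of counts outside the dominant models as a covariate, edgeR called 0 models over both days and at day 6, as without it, but 42 in place of 10 at day 17 (all 10 among them) and 8 in place of 2 for the difference between days (1 of the 2 among them).

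A library of each concentration stood apart. In replicate 3 of the day 6 animals labelled 1 nM Hg/L, only 3.97% of counts lay outside the dominant models, 12367 models had counts (against 14255 to 16671 in the other 11) and its log2 CPM (counts scaled to library size) correlated at 0.778 and 0.796 with the other members of its group. Replicate 2 of the day 17 animals labelled 0 was nearer to the day 6 libraries (mean correlation 0.815) than to those of its own labelled day (0.723). Both were kept. Counts of called models, correlations between effects and some of the named models are also given without both. The other results, with the non-overlap counts, the day 10 sign shares and the abundance classes among them, are not. The first principal component, with 46.1% of the variance, set most libraries of the 2 days apart, and along it this day 17 control scored -26.2, while the other 2 day 17 controls scored 61.7 and 58.4 and the 3 day 17 animals at 1 nM Hg/L scored 87.6, 81.7 and 82.2. On this component 1 nM Hg/L averaged 29.4 above 0 over both days (exact permutation p = 0.045). The difference was 6.24 at day 6 (exact permutation p = 0.9) and 52.5 at day 17 (p = 0.1), where the control at -26.2 is included. Pairs of libraries of one group had a median correlation of 0.888 (0.746 to 0.952), pairs of 1 nM Hg/L with 0 at the same day 0.865, and pairs across days 0.708. The first 2 medians were close, but pairs with the 2 libraries that stand apart enter both.

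**Figure D1:**
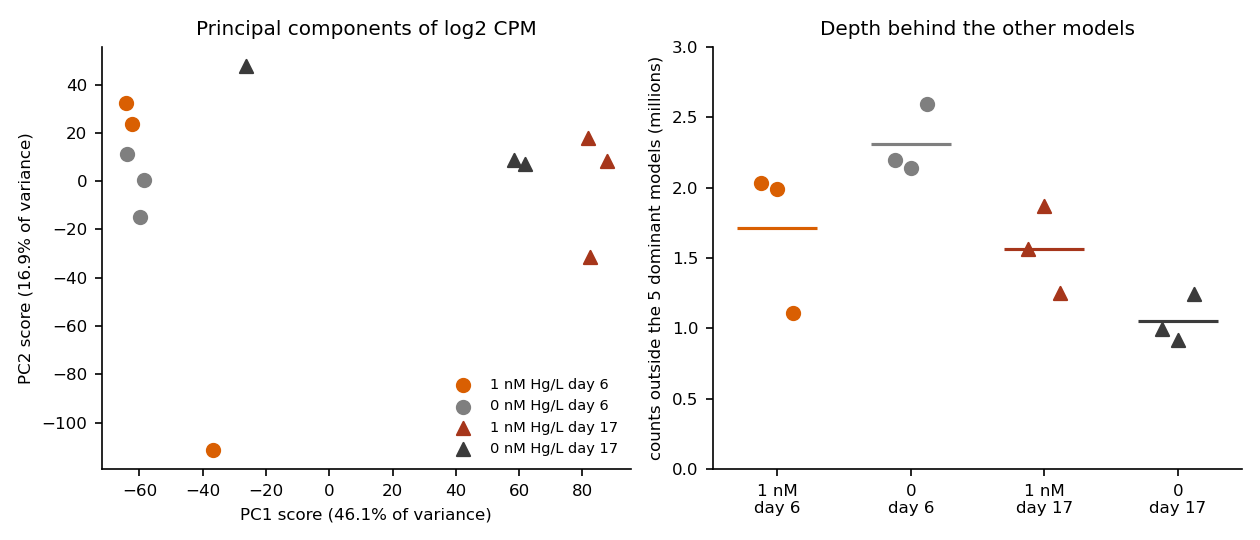
Left, scores of the 12 libraries on the first 2 principal components of log2 CPM, with orange and red for 1 nM Hg/L, grey and black for 0, circles for day 6 and triangles for day 17. Right, counts outside the 5 dominant models per library, with the group mean as a line: the exposed animals lie below the controls at day 6 and above them at day 17, and the 1 nM Hg/L library with 1109336 counts is the low point at day 6.

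Over both days together, no gene model passed the threshold (adjusted p below 0.05, edgeR's quasi-likelihood test with Benjamini-Hochberg adjustment over 10394 models, 0% called). The smallest adjusted p was 0.0941, and 869 models (8.36%) had an unadjusted p below 0.05, 448 of them higher and 421 lower at 1 nM Hg/L. The median standard error (SE) of a log2 change was 0.29. DESeq2 called 30 models on the same counts, 16 higher and 14 lower, and limma-voom with quality weights called 7, 4 higher and 3 lower. Without both libraries that stand apart edgeR called 5. By non-overlap of the individual animals, 46 models (0.443%) were higher and 61 (0.587%) lower in all exposed animals than in all controls at both days, while 138 (1.33%) did not overlap in opposite directions at the 2 days. At single days the shares were 6.11% higher and 7.64% lower at day 6, and 9.01% and 8.51% at day 17. Whether the counts at both days exceed what unrelated days would give was not tested, so they show no shared response.

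The 2 models with the smallest p in each direction under the naming rule, with its minimum of 5 CPM, are given by animal. They were chosen by p in these same 12 libraries and for the same sign at both days. How far their groups lie apart thus follows in part from the choice and is a description only. EdgeR's test called none of the 4, and DESeq2 called all of them. The smallest adjusted p over all models, 0.0941, was shared by APZ42_012196 and APZ42_032314, which lie below that minimum. APZ42_026379 (scaffold02076, 206426 to 216913, minus strand, 13 exons) had 2.73, 2.51 and 1.49 CPM in the animals at 1 nM Hg/L at day 6, against 1.03, 0.568 and 0.522 CPM in those at 0. Its day 17 levels were 19.3, 14.2 and 9.54 CPM at 1 nM Hg/L, against 7.05, 3.56 and 2.41 CPM at 0. Only the exposed day 17 group averaged above the minimum of 5 CPM. The exposed animals thus lay above the controls at both days, with a log2 difference of 1.70 (SE 0.28, adjusted p = 0.104 by edgeR). DESeq2 and limma-voom both called this model, with adjusted p = 4.41e-04 and 0.0373; over all alternative settings it ranged up to 0.985.

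APZ42_022616 (scaffold01361, 1556660 to 1560268, plus strand, 14 exons) had 3.29, 4.32 and 7.88 CPM at 1 nM Hg/L and 3.59, 3.45 and 2.78 CPM at 0 at day 6, where the groups overlapped. At day 17 they did not, with 10.8, 12.9 and 15.1 CPM at 1 nM Hg/L against 5.15, 5.11 and 4.82 CPM at 0 (log2 difference over both days 1.01, SE 0.21, adjusted p = 0.249 by edgeR, and 0.0288 by DESeq2 to 0.985 over the alternative settings).

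Of the 2 models on the low side, APZ42_014475 (scaffold00443, 220199 to 227588, plus strand, 13 exons) had 15.1, 13.5 and 6.84 CPM at 1 nM Hg/L against 17.8, 19.9 and 19.6 CPM at 0 at day 6. Its day 17 values were 2.28, 2.7 and 3.41 CPM at 1 nM Hg/L, against 8.79, 5.93 and 5.77 CPM at 0. All exposed animals lay below all controls of their day, by -0.98 on the log2 scale (SE 0.21, adjusted p = 0.249 by edgeR, and 0.0417 by DESeq2 to 0.975 over the alternative settings). APZ42_024849 (scaffold01764, 168695 to 171002, plus strand, 5 exons) had 19.3, 19.0 and 8.63 CPM at 1 nM Hg/L and 24.8, 44.3 and 30.8 CPM at 0 at day 6. At day 17 the values were 5.38, 4.79 and 3.07 CPM at 1 nM Hg/L and 9.50, 7.85 and 8.04 CPM at 0, again without overlap (log2 difference -1.01, SE 0.22, adjusted p = 0.27 by edgeR, and 0.0390 by DESeq2 to 0.985 over the alternative settings). In both models the lowest day 6 value belonged to the exposed library with few counts outside the dominant models. In a whole animal, fewer cells of a type and less RNA per cell cannot be told apart.

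**Figure D2:**
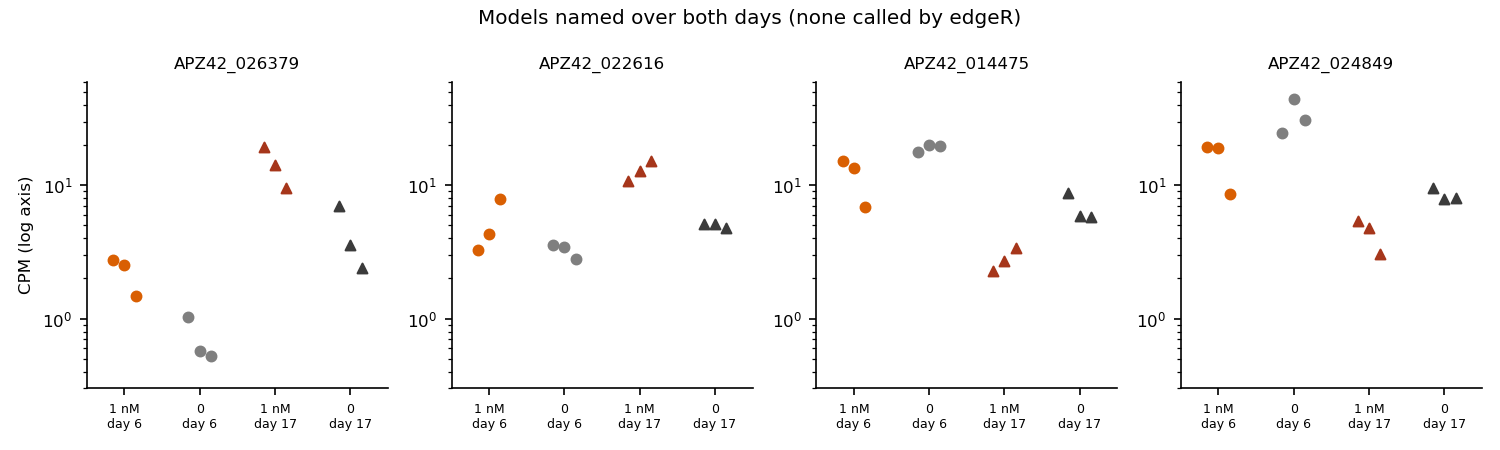
CPM on a log axis in each of the 12 animals for the 4 gene models that the naming rule gave over both days, none of them called by edgeR (DESeq2 called all 4). Each point is 1 animal, with 1 nM Hg/L left of 0 within each day; APZ42_026379 and APZ42_022616 lean higher at 1 nM Hg/L, and APZ42_014475 and APZ42_024849 lean lower, with overlap only for APZ42_022616 at day 6.

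The tested models most like these 4 in their level over the 12 libraries were on other scaffolds or contigs of the assembly. Among 2107 models with a mean of at least 5 CPM, the 2 closest to each had Pearson correlations of 0.907 to 0.980 over the 12 libraries, and none of the 8 lay on the same scaffold. These correlations describe libraries that share depth and day and carry no test. How often models share a scaffold was not taken over all candidates, so the lack of shared scaffolds is a description only.

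At day 6, no model was called (0% of 10394, smallest adjusted p 0.721 by edgeR). An unadjusted p below 0.05 was reached by 700 models (6.73%), 365 higher and 335 lower at 1 nM Hg/L. DESeq2 called 8 models, 7 higher and 1 lower, and limma-voom called none. The 3 exposed animals did not overlap the 3 controls at 635 models (6.11%) that were higher and 794 (7.64%) that were lower. The median SE of a log2 change was 0.40 at day 6 and 0.41 at day 17.

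The lower model with the largest difference under the naming rule at day 6 was APZ42_025233 (scaffold01847, 6062 to 13723, plus strand, 1 exon). It had 930, 1010 and 745 CPM at 1 nM Hg/L, against 3210, 3670 and 2290 CPM at 0. The highest exposed animal was below the lowest control, and the log2 difference was -1.77 (SE 0.34, adjusted p = 0.721 by edgeR, and 2.17e-04 by DESeq2 to 1 over the alternative settings). At day 17 the groups overlapped, at 1710, 917 and 941 CPM in the animals at 1 nM Hg/L and 1760, 1040 and 1420 CPM in those at 0. APZ42_000816 (contig04370, plus strand, 1 exon) lay on the high side at day 6, with 23.8, 22.8 and 48.9 CPM at 1 nM Hg/L against 2.73, 5.84 and 9.73 CPM at 0. Its log2 difference was 2.38 (SE 0.49, adjusted p = 0.721 by edgeR, and 0.00143 by DESeq2 to 0.973 over the alternative settings). In the day 10 animals it was ordered the other way, without overlap, at a log2 difference of -2.61 (SE 0.38, adjusted p = 0.293 by edgeR).

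The other 2 models named for day 6 were weaker in size. APZ42_026391 (scaffold02076, 85459 to 93800, plus strand, 6 exons) had 7.99, 5.71 and 9.81 CPM at 1 nM Hg/L, against 3.18, 3.08 and 3.17 CPM at 0 (log2 difference 1.31, SE 0.23, adjusted p = 0.721 by edgeR). APZ42_017599 (scaffold00687, 1857029 to 1860149, plus strand, 10 exons) had 5.26, 4.06 and 3.27 CPM at 1 nM Hg/L, against 7.89, 10.7 and 9.44 CPM at 0 (log2 difference -1.14, SE 0.23, adjusted p = 0.721 by edgeR). At day 17 the log2 differences were 0.02 for APZ42_026391 and -0.08 for APZ42_017599. Without both libraries that stand apart edgeR called 3 models at day 6, all higher at 1 nM Hg/L, which are APZ42_017518, APZ42_019913 and APZ42_030673; this fit and these names were chosen after their values were seen.

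At day 17 edgeR called few models, 10 of 10394 (0.0962%), with 2 higher (0.0192%) and 8 lower (0.077%) at 1 nM Hg/L. An unadjusted p below 0.05 was reached by 1301 (12.5%), 536 higher and 765 lower. The animals did not overlap at 937 models (9.01%) that were higher and 885 (8.51%) that were lower. Among the 8 that fell, 6 had at least 3 counts in each exposed animal at day 17 and fitted log2 differences between -4.70 and -1.57; the other 2 had at most 1 count in any of these animals, and no fold is given for them. The number called depended on the fit. DESeq2 called 51 higher and 110 lower and limma-voom 14 higher and 8 lower. The number was 2 when only the 6 day 17 libraries were fitted, and 0 when all 84 libraries of the series set the spread. Leaving out 1 library gave 2 to 64 calls, with 64 when replicate 1 of the day 17 controls was left out and 28 when replicate 3 of the exposed day 6 animals was.

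The smallest adjusted p was that of APZ42_013693 (scaffold00311, 912005 to 922003, minus strand, 17 exons). It had 0.207, 0.131 and 0.273 CPM in the day 17 animals at 1 nM Hg/L, from 4, 3 and 4 counts, against 6.49, 3.56 and 5.92 CPM in the controls, from 82, 39 and 81 counts. At day 6 the groups overlapped, at 5.36, 7.36 and 8.63 CPM at 1 nM Hg/L and 8.63, 9.61 and 6.92 CPM at 0. The log2 difference at day 17 was -4.70 (SE 0.34, adjusted p = 7.29e-05 by edgeR) and it was -4.94 (adjusted p = 1.85e-05) without both libraries that stand apart. For this model the SE was larger by DESeq2 (0.55) and limma-voom (0.61), and both called it. It was called whichever of the 12 libraries was left out, with adjusted p between 2.77e-05 and 0.00197, but not when all 84 libraries were fitted (adjusted p = 0.648, the highest over the alternative settings).

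APZ42_019064 (scaffold00872, 252020 to 260113, minus strand, 13 exons) followed the same course. Its day 17 levels were 0.518, 0.479 and 1.29 CPM at 1 nM Hg/L, against 10.8, 15 and 8.4 CPM at 0, and its day 6 levels were 17.8, 18.4 and 23.8 CPM at 1 nM Hg/L, against 14.4, 21.4 and 19.5 CPM at 0. The groups thus overlapped at day 6 and were far apart at day 17, with a log2 difference of -3.91 at day 17 (SE 0.38, adjusted p = 0.00118 by edgeR). This call held with any 1 library left out and was lost in the fit of the day 17 libraries alone and in that of all 84 (adjusted p = 0.648).

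APZ42_021013 (scaffold01036, 235609 to 241513, plus strand, 4 exons) was lower in exposed animals at both days. It had 14.1, 13.7 and 4.16 CPM at 1 nM Hg/L against 21.2, 29.2 and 34.8 CPM at 0 at day 6. At day 17 it had 0.828, 0.522 and 0.341 CPM at 1 nM Hg/L against 18.1, 4.47 and 8.99 CPM at 0. The groups did not overlap at either day, but only the day 17 difference of -4.19 (SE 0.62, adjusted p = 0.0402 by edgeR) was called. That call was lost in 9 of the 12 fits that left out 1 library, and its adjusted p over the alternative settings ran up to 0.648; without both libraries that stand apart it was 6.98e-04.

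Both models that rose at day 17 are named here because they are the only ones, after their values were seen. APZ42_012196 (scaffold00084, 749557 to 755214, plus strand, 7 exons) had 6.00, 5.01 and 4.43 CPM in the animals at 1 nM Hg/L, against 1.43, 1.10 and 0.877 CPM in those at 0. The log2 difference was 2.18 (SE 0.33, adjusted p = 0.0307 by edgeR). At day 6 it was near the limit of detection in both groups, with 3 to 8 counts in each of the 6 animals. APZ42_023716 (scaffold01579, 358569 to 365697, plus strand, 4 exons) had 6.78, 6.97 and 7.56 CPM at 1 nM Hg/L against 2.14, 1.64 and 3.29 CPM at 0 at day 17 (log2 difference 1.59, SE 0.26, adjusted p = 0.0441 by edgeR). Its day 6 values, 3.09, 2.99 and 2.08 CPM at 1 nM Hg/L and 3.26, 3.73 and 3.07 CPM at 0, overlapped only where the highest exposed animal met the lowest control. These calls were lost in 9 and 10 of the 12 fits without 1 library.

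**Figure D3:**
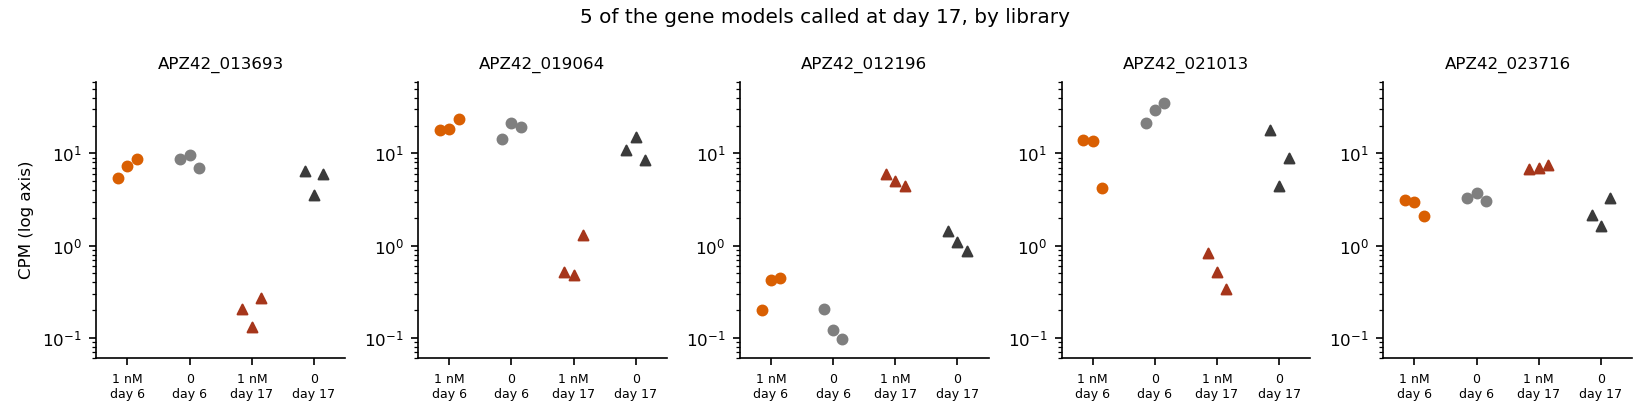
CPM on a log axis in each of the 12 animals for 5 of the 10 gene models called at day 17, with 1 nM Hg/L left of 0 within each day. At day 17 the exposed animals lie below the controls for APZ42_013693, APZ42_019064 and APZ42_021013 and above them for APZ42_012196 and APZ42_023716, without overlap; at day 6 only APZ42_021013 is without overlap.

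Above the minimum of 5 CPM that the naming rule asked for, no model higher at day 17 was called, and the 2 nearest were APZ42_015075 and APZ42_032905. APZ42_015075 (scaffold00512, 1446872 to 1453171, minus strand, 20 exons) had 89.1, 62.4 and 139 CPM at 1 nM Hg/L at day 17, against 33.7, 15.4 and 21.9 CPM at 0. Its log2 difference of 2.03 (SE 0.38) had an adjusted p of 0.0764 by edgeR, and of 0.00100 by DESeq2 to 0.755 over the alternative settings. APZ42_032905 (scaffold03124, 2017632 to 2021105, minus strand, 8 exons) had 13.2, 15.1 and 19.7 CPM at 1 nM Hg/L and 7.68, 4.84 and 4.09 CPM at 0 (log2 difference 1.53, SE 0.29, adjusted p = 0.0826 by edgeR, and 0.00497 to 0.68 over the alternative settings). For both, the lowest exposed animal at day 17 was above the highest control.

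Whether the difference between 1 nM Hg/L and 0 itself changed from day 6 to day 17 was tested as an interaction. Of 10394 models, 2 (0.0192%) were called, both lower, and 1122 (10.8%) had an unadjusted p below 0.05. The day 17 minus day 6 difference of the effect was -4.46 for APZ42_013693 (SE 0.43, adjusted p = 0.00187 by edgeR) and -4.02 for APZ42_019064 (SE 0.49, adjusted p = 0.0143 by edgeR). For APZ42_013693 the SE of this difference was 0.64 by DESeq2 and by limma-voom. Both of these models rest on few counts in the exposed day 17 animals. Neither was called with all 84 libraries fitted (adjusted p = 0.954), and APZ42_019064 lost its call in 4 of the 12 fits without 1 library. With the share of counts outside the dominant models as a covariate, the difference was -4.0 for APZ42_013693 (adjusted p = 0.0198 by edgeR) and -3.52 for APZ42_019064, no longer called (adjusted p = 0.0644). Without replicate 3 of the exposed day 6 animals 13 models were called, all lower. In the upward direction edgeR called no model, DESeq2 called 5 and the covariate fit 2; the nearest under the naming rule were APZ42_015075 (2.44, SE 0.52, adjusted p = 0.334 by edgeR, and 0.00919 by DESeq2 to 0.98 over the alternative settings) and APZ42_032062 (scaffold03033, 17 to 6654, plus strand, 7 exons), which differed by 1.49 (SE 0.34, adjusted p = 0.334 by edgeR, and 0.0309 by DESeq2 to 0.954 over the alternative settings). APZ42_032062 had 22.6, 20.5 and 20.8 CPM at 1 nM Hg/L against 9.98, 7.94 and 12.6 CPM at 0 at day 17, and 9.56, 11.3 and 6.69 CPM at 1 nM Hg/L against 10.2, 15.6 and 11.2 CPM at 0 at day 6.

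Across all 10394 models the estimated effects of the 2 days bore little relation to each other. Their Pearson correlation over models was 0.06, and 48.8% of models had the same sign at both days. Without both libraries that stand apart the values were 0.04 and 48.5%. With all 12 libraries the median absolute log2 change was 0.32 at day 6 and 0.35 at day 17, below the median SE of 0.40 and 0.41. A low correlation therefore cannot tell effects that differ between days from effects that are poorly measured. Since gene models are not independent of each other, these values are a description and carry no test.

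The 6 animals of 1 nM Hg/L and 0 at day 10, which took no part in the fits above, gave the same contrast in other animals. No model was called there either (0% of 8912, smallest adjusted p 0.293 by edgeR), though 1241 (13.9%) had an unadjusted p below 0.05, 781 higher and 460 lower. The animals did not overlap at 882 models (9.9%) that were higher and 811 (9.1%) that were lower. When the second exposed animal (replicate 2) was left out, 421 models were called, 382 higher and 39 lower. All 10 models called at day 17 had the same sign at day 10, as did 67.7% of the 8597 models tested at both days, and 2 of the 10 had an unadjusted p below 0.05 there. Among the 1127 models with p below 0.05 at day 17 that were also tested at day 10, 996 (88.4%) kept their sign. Of the 575 such models of day 6, 357 (62.1%) did, against 53.3% of all models. The correlation over models of the day 10 effect was 0.52 with the day 17 effect and 0.17 with the day 6 effect. With the day 17 minus day 6 change in 30 libraries of other concentrations it was 0.48. Of those 8870 models, 59.6% had the same sign. How far the signs shared by days 10 and 17 follow that change rather than the concentration was not tested.

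Single day 10 animals differed widely for the 2 models whose effect differed between days. On levels scaled over all 84 libraries, APZ42_013693 had 1.52, 11 and 0.540 CPM in the day 10 animals at 1 nM Hg/L, against 11.7, 5.50 and 14.4 CPM at 0. APZ42_019064 had 2.40, 29.3 and 0.486 CPM at 1 nM Hg/L and 23.2, 5.10 and 41.8 CPM at 0. In both models 2 of the 3 exposed animals at day 10 were below every control, and the third, replicate 2, lay within the range of the controls. At day 24 APZ42_019064 had 6.45, 0.549 and 3.62 CPM at 1 nM Hg/L, against 29.9, 9.76 and 8.26 CPM at 0, without overlap. For APZ42_013693 the day 24 animals had 1.09, 0.118 and 4.58 CPM at 1 nM Hg/L and 3.20, 0 and 2.75 CPM at 0, and the groups overlapped. The day 24 controls were shallow, with 3, 0 and 2 counts of APZ42_013693 and 28, 5 and 6 of APZ42_019064, so little can be read from either comparison at that day.

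**Figure D4:**
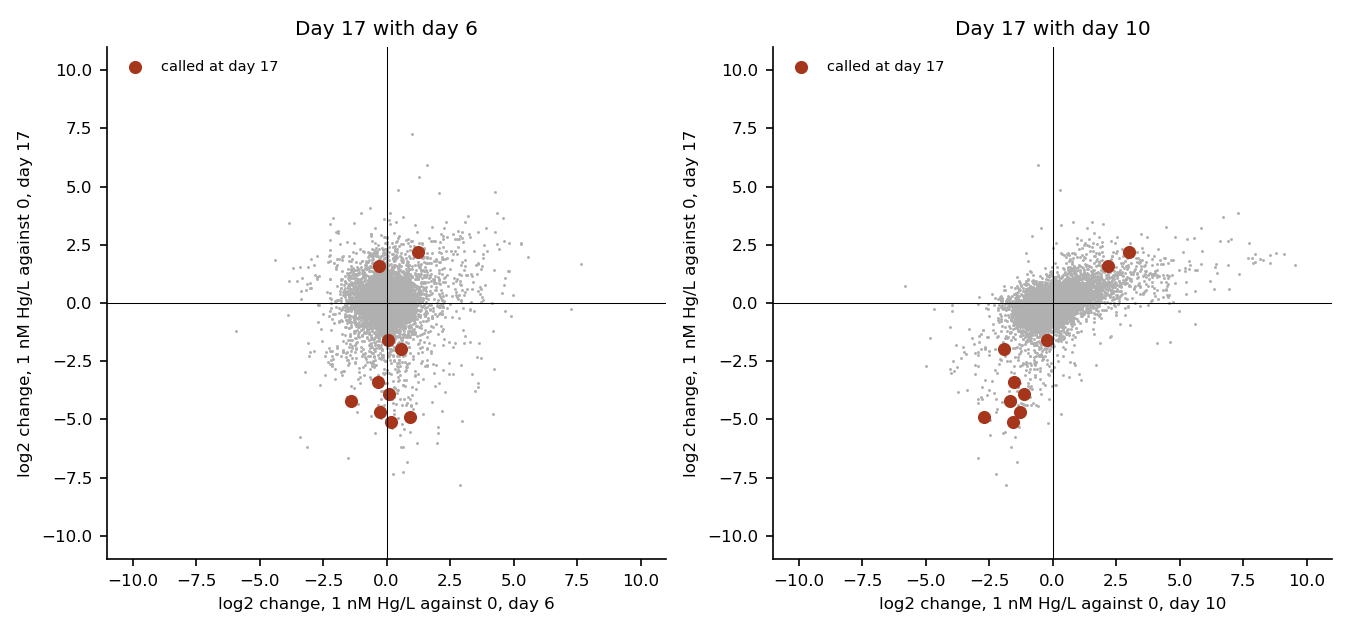
Each grey point is 1 gene model, with the log2 difference of 1 nM Hg/L against 0 at day 17 on the vertical axis and that at day 6 (left) or day 10 (right) on the horizontal axis; red points are the 10 models called at day 17. The cloud at day 6 has no slope (correlation 0.06), that at day 10 rises (0.52), and all 10 red points have the same sign at day 10 and day 17.

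Levels as low as those of the exposed day 17 animals also occurred at other concentrations. Among the 15 day 17 libraries of the other 5 concentrations, 1 reached the range of the 1 nM Hg/L animals for APZ42_013693, at 0.25 nM Hg/L, where the 3 animals had 0.595, 3.45 and 0.0863 CPM. For APZ42_019064, 3 did, 1 at 0.015 and 2 at 0.25 nM Hg/L. At 4 nM Hg/L none did at day 17, where APZ42_013693 had 0.702, 3.71 and 3.47 CPM and APZ42_019064 had 4.74, 22.8 and 24.4 CPM. In the 15 day 6 libraries of those concentrations none reached that range for either model. Over the 10 called models, 1 to 5 of the 15 day 17 libraries reached the 1 nM Hg/L range.

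**Figure D5:**
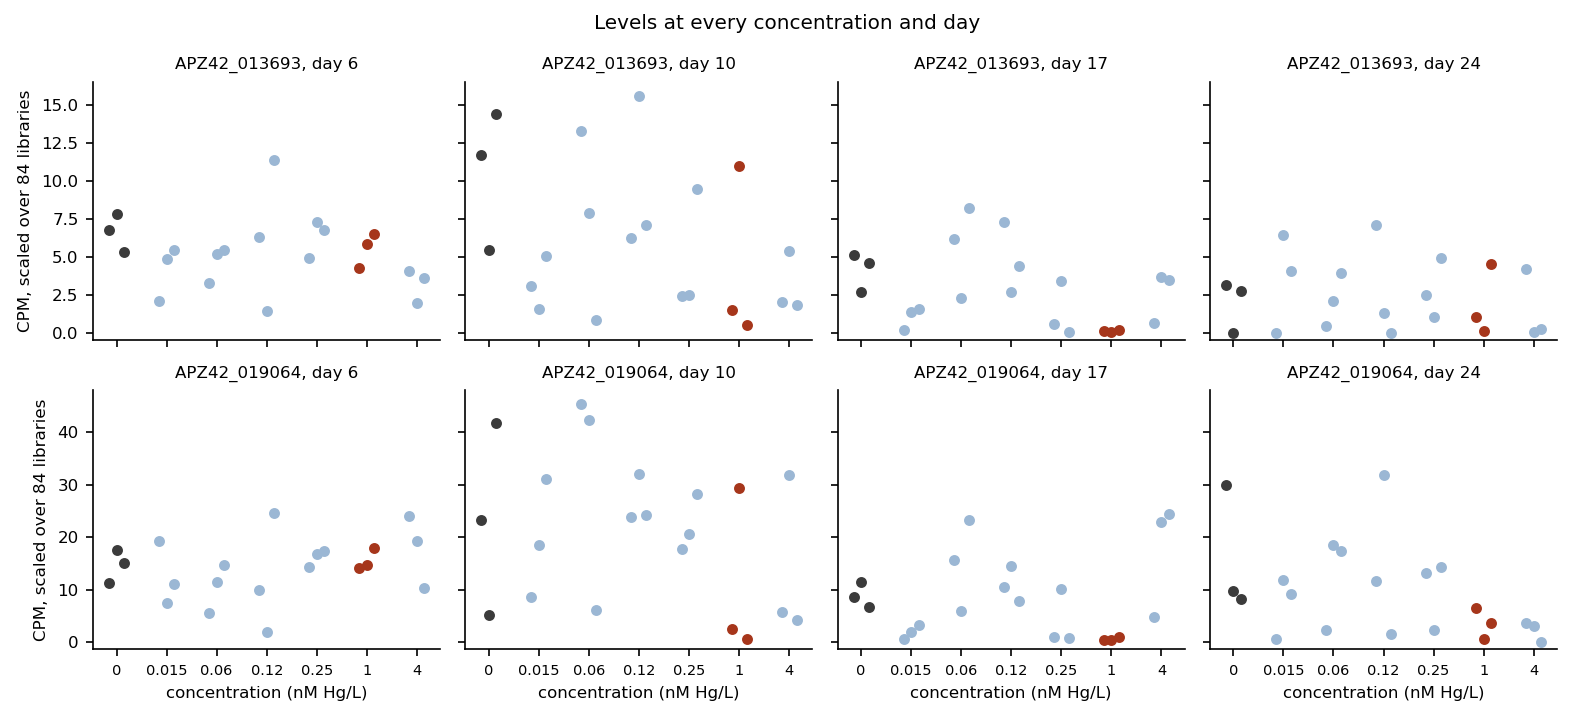
CPM, scaled over all 84 libraries, of APZ42_013693 (top) and APZ42_019064 (bottom) in every animal by concentration, from 0 to 4 nM Hg/L, and by day; red points are 1 nM Hg/L, black points 0 and blue points the other concentrations. At day 17 the 3 red points of each model lie near 0, with a few blue points at 0.015 and 0.25 nM Hg/L beside them.

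The 10 models called at day 17 were also compared with the change between the days. In the 30 day 6 and day 17 libraries of the 5 other concentrations, all 10 had the same sign in the day 17 minus day 6 change as in the 1 nM Hg/L effect, against 58.5% of 10349 models tested in both. The change had an adjusted p below 0.05 by edgeR only for APZ42_013308, APZ42_017689, APZ42_028625 and APZ42_012196. For APZ42_013693 and APZ42_019064 the adjusted p was 0.0989 and 0.174 by edgeR. Over the 10349 models the correlation with this change was 0.42 for the day 17 effect and 0.20 for the day 6 effect. Without both libraries that stand apart it was 0.23 and -0.05. For the day 10 effect, which uses neither of these libraries, it was 0.48 over 8870 models.

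Models called at day 17 formed no stretch of 3 or more neighbouring called models in the assembly. Of the 19 tested models next to the 10 called ones, 10 had the same sign and 4 of these an unadjusted p below 0.05. Over all tested models, 7.36% were lower and 5.16% higher at day 17 with such a p. The share of neighbours with the same sign was not taken over all models, so these counts are a description only. Runs of at least 4 neighbours with an unadjusted p below 0.05 in one direction numbered 14 over the 4 contrasts, a rule set after the values were seen. Those on scaffold00763, scaffold01361 and scaffold03373 were counted both at day 17 and for the difference between days. The day 17 run on scaffold00763, from 11234 to 27155, held 4 models on the minus strand. The median log2 difference of these 4 was -4.39 at day 17, and none was called (smallest adjusted p 0.0541 by edgeR). Their summed level was 0.886 to 4.05 CPM in the day 17 animals at 1 nM Hg/L, against at least 17.7 CPM in each of those at 0, and was at least 50.3 CPM in each animal at 1 nM Hg/L and 63.5 CPM in each at 0 at day 6. The highest of these day 17 controls is the library nearer to day 6. Whether neighbouring models are near-identical copies that share counts could not be checked.

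Models with an unadjusted p below 0.05 at day 17 leaned lower among the abundant ones. Among the 3465 most abundant tested models 11.5% were lower and 5.69% higher at 1 nM Hg/L, against 7.36% and 5.16% of all tested models, and 7 of the 10 called models were in this class. At day 6 the same class leaned the other way, with 5.95% higher and 1.93% lower, against 3.51% and 3.22% of all. At day 17 the share lower was 6.89% among 2483 models with 10 or more exons, 7.39% among 853 with a single exon and 9.63% among 748 on contigs. The abundance lean and the depth thus both turned between days, in opposite directions. Whether they are related was not tested, and no test was made of the lean.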

How the data were processed

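RNA was measured in single whole Daphnia magna. Per the labels' protocols, ribosomal RNA was depleted and the library kit keeps strand. The submitters' processing notes name STAR 2.7.5b as the aligner. How reads were counted, with which strand setting, build and annotation, is not given in the sources used here, so overlapping, antisense and near-identical models may share counts. The authors deposited whole-number counts per gene model, not normalized (27350 models, 3363 without counts in any of the 84 libraries). None of the IDs matched the RefSeq gene table of assembly ASM2063170v1.1. Coordinates are those of the deposited table.

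Counts of the 12 libraries were fitted in R 4.3.3 with edgeR 4.0.16 (trimmed mean of M-values (TMM) scaling, filterByExpr at its minimum count of 10, quasi-likelihood fit of edgeR 4 with robust shrinkage, without a separate dispersion step), with day as a block (9 residual degrees of freedom) or 1 mean per concentration and day (8). Benjamini-Hochberg adjustment ran over the 10394 tested models, with a threshold of 0.05. CPM values use TMM-scaled library sizes of the 12 libraries unless scaling over 84 is stated. Differences are 1 nM Hg/L minus 0. The SE of an edgeR log2 difference was taken as its absolute size over the square root of the F statistic of its test. Single values per library were compared with exact permutation tests. Alternatives were DESeq2 1.42.0, its size factors, limma-voom with quality weights (limma 3.58.1), 2 other filters, the older edgeR fit, all 84 libraries fitted, the dominant models removed, their complement's share of counts as a covariate, no day block and each library left out. Fits without both libraries that stand apart, and of 1 day alone, were added after seeing the data. Only the comparison over both days was tried on simulated data, with edgeR, its older fit, limma-voom and DESeq2. The other contrasts, the covariate fit and the permutation tests were not.

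Per contrast, the rule named the 2 highest and 2 lowest models by log2 change, taken from called models that averaged 5 CPM or more and had counts in both groups, with the same sign at both days for the comparison over days; open places went to the smallest p in that direction. The comparison and lists were chosen with earlier results of these data known. Replicates were numbered in accession order and are separate animals per the labels, which do not say whether animals shared a vessel, so p-values measure the spread between animals.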

Additional observations from a re-analysis of the deposited data

Results flagged for a closer look

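Of the results above, 4 were flagged as differing between the days. For 2 gene models this rests on edgeR's test of the difference itself. For 2 measures of depth it rests on permuting concentration within day. That permutation takes no difference between 1 nM Hg/L and 0 at either day as its null, so it is not a test of equal effects. The effect of 1 nM Hg/L against 0 on APZ42_013693 was lower at day 17 than at day 6 by a log2 difference of -4.46 (adjusted p = 0.00187, edgeR's quasi-likelihood test), with a day 17 effect of -4.70 and a day 6 effect of -0.24, and all 3 exposed animals were below all 3 controls at day 17. The effect on APZ42_019064 differed in the same way, by -4.02 (adjusted p = 0.0143, edgeR's quasi-likelihood test), with a day 17 effect of -3.91 and a day 6 effect of 0.12. The log2 number of counts outside the dominant models also had an effect that differed between the days, by 1.04, and so did the log2 percent of counts outside them, by 1.08. Each of these 2 measures had an exact permutation p of 0.005, the smallest that the arrangements allow, and each was lower in all exposed animals at day 6 and higher in all of them at day 17. With the share of counts outside the dominant models as a covariate, the difference was -4.0 for APZ42_013693 (adjusted p = 0.0198) and -3.52 for APZ42_019064 (adjusted p = 0.0644), both by edgeR's quasi-likelihood test.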

How the results depend on the processing

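No paired analysis was possible because the replicate numbers were given in accession order and pair no animals across groups. The counts of called models moved with the settings, and the cause was not tested. Over both days together, 0 models were called; no filter gave 4, DESeq2 30, limma-voom 7 and leaving out both libraries that stand apart 5, and leaving out 1 library gave 0 to 2. At day 6, 0 became 8 with DESeq2 and 3 without both libraries, and stayed 0 without any 1 library.

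At day 17, 10 became 28 with no filter (11 higher), 1.6e+02 with DESeq2 (51 higher and 110 lower), 22 with limma-voom (14 higher), 6 with the older edgeR fit, 0 with all 84 libraries fitted, 42 with the share of counts outside the dominant models as a covariate (20 higher), 33 without both libraries (6 higher) and 2 with day 17 alone. Leaving out 1 library gave 2 to 64: 64 without 0 day 17 replicate 1 and 28 without 1 nM Hg/L day 6 replicate 3. It gave 7 without 0 day 17 replicate 2 and 8 without 1 nM Hg/L day 17 replicate 3, and 2 to 5 without each of the others. DESeq2, the covariate fit and the fit without both libraries contain all 10. For the difference between days, 2 became 4 with no filter, 46 with DESeq2, 0 with all 84 libraries, 8 with the covariate and 22 without both libraries, and 1 to 13 without 1 library (13 without 1 nM Hg/L day 6 replicate 3). At day 10, 0 became 545 with all 84 libraries and 0 to 421 without 1 library.

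The average log2 difference in counts outside the dominant models, 0.04, was 0.21 for total counts (exact permutation p = 0.04) and -0.0352 to 0.184 without 1 library. It turned negative without 0 day 17 replicate 2 (-0.00554), 1 nM Hg/L day 6 replicate 1 (-0.0352) or 2 (-0.0275), or 1 nM Hg/L day 17 replicate 2 (-0.0298). Of 545 values of named models under other settings, 422 kept their side of the threshold, 104 lost their call, 17 gained one, 2 had no adjusted p and 0 changed sign. At 11615188 to 27952023 total counts per library, depth outside the dominant models limits differences among low models.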

Other observations

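Leaving out both libraries that stand apart, a choice made after seeing the data, edgeR's quasi-likelihood test called 5 models over both days, 4 higher and 1 lower at 1 nM Hg/L. APZ42_017518 (scaffold00687, 1549329 to 1553522, minus strand, 3 exons) differed by 3.34 on the log2 scale (SE 0.50, adjusted p = 0.0283), against 0.72 with all 12 libraries (adjusted p = 0.899). APZ42_032314 (scaffold03102, 89159 to 92556, minus strand, 2 exons) differed by 2.26 (SE 0.33, adjusted p = 0.0444), against 2.03 with all 12 (adjusted p = 0.0941). The lower model, APZ42_017457 (scaffold00687, 1077361 to 1079204, plus strand, 7 exons), differed by -4.73 (SE 0.70, adjusted p = 0.0283), against -3.82 with all 12 (adjusted p = 0.241). These values rest on 2 animals in the 1 nM Hg/L group at day 6 and 2 in the group at 0 at day 17.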
